A study of Mus musculus with 76 samples.

Results

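The transcripts of the mitochondrial genome were taken as all rows of the WAT and liver tables whose gene symbol starts with mt-, which gave 33 of the 18964 rows in visceral white adipose tissue (WAT) and 30 of the 16775 rows in liver. Of the 37 genes annotated on the mitochondrial genome in GENCODE vM21, all 13 mRNAs and both rRNAs were listed in each tissue, with 18 of the 22 tRNAs in WAT and 15 in liver. The members were chosen by gene symbol, and this set of genes was picked out with earlier results of these data in view. The genes mt-Tn, mt-Ty, mt-Tk and mt-Te had no row in either table. Both tissues came from female C57BL/6 mice with free access to food and drink, whose ages were not given in the sources used here. Fnip2C/C mice carried a CRISPR/Cas9 knock-in that placed the C variant of a human polymorphism in the 3′UTR of Fnip2, with an added base change that destroyed the guide's PAM, and Fnip2T/T mice carried the mouse sequence. RNA was available from 4 Fnip2C/C and 5 Fnip2T/T mice for WAT and from 5 mice of each genotype for liver, with 6 mice giving both tissues. Libraries were made from 250 ng of liver RNA or 500 ng of WAT RNA with QuantSeq 3′ mRNA-Seq FWD, which starts on runs of A with an oligo-dT primer, and were sequenced on an Illumina NextSeq.

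The mitochondrial genome is a small circle that encodes core subunits of the respiratory chain and of ATP synthase, along with the rRNAs and tRNAs that translate them inside the organelle. Both strands are transcribed into long precursors, from which the tRNAs are cut out, leaving the mRNAs and rRNAs that lie between them. A mitochondrial poly(A) polymerase then adds short tails to most mRNAs, and on some of them the tail supplies the missing bases of the stop codon. In adipocytes and hepatocytes these transcripts serve oxidative phosphorylation, and they are among the most read RNAs of a cell.

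The sequences below show where members overlap and where the annotated end of an mRNA leaves its stop codon incomplete. They come from the GENCODE vM21 transcripts (GRCm38), run 5′ to 3′ and are 30 bases long. The pair mt-Nd4l and mt-Nd4 share 7 bases, here in capitals, and are translated from the same mRNA. They are the end of mt-Nd4l (chrM:10144-10173, + strand) and the start of mt-Nd4 (chrM:10167-10196, + strand).
mt-Nd4l: gtccaaaatctcaacctactacaATGCTAA
mt-Nd4: ATGCTAAaaattattcttccctcactaatg
The pair mt-Atp8 and mt-Atp6 overlap by 43 bases, and the stretch of mt-Atp8 that holds the start codon of mt-Atp6 (in capitals) is chrM:7917-7946 on the + strand.
mt-Atp8: gagaattaaaATGaacgaaaatctatttgc
The annotated ends of 3 mRNAs leave only the T of a stop codon (in capitals), which a tail of A completes. They are mt-Co3 (chrM:9361-9390), mt-Nd4 (chrM:11515-11544) and mt-Cytb (chrM:15259-15288), all on the + strand.
mt-Co3: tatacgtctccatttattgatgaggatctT
mt-Nd4: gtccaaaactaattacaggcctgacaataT
mt-Cytb: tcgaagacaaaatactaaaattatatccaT
The tRNAs mt-Ti (chrM:3745-3774, + strand) and mt-Tq (chrM:3772-3801, - strand) face each other and share the 3 bases in capitals at their ends.
mt-Ti: attatagaggttcaagccctcttatttCTA
mt-Tq: taagtgtaggttcaattcctattgtccTAG
The mRNAs mt-Nd5 (chrM:13536-13565, + strand) and mt-Nd6 (chrM:13552-13581, - strand) face each other in the same way and share 14 bases.
mt-Nd5: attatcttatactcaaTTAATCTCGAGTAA
mt-Nd6: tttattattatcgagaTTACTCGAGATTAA

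The deposited values are normalized counts, meaning the reads of a gene over the size factor of its library, and WAT and liver were normalized separately. Whole reads recovered from them summed to between 4180209 and 6277644 per WAT library and between 5583041 and 7523200 per liver library. All 8 adipocyte markers had reads in every WAT library, but their summed level was 4343 to 11103 RPM (reads scaled to a total of 1000000 listed reads) in Fnip2C/C WAT and 13452 to 20238 in Fnip2T/T WAT, with 6 of the 8 lower in Fnip2C/C. Haemoglobin transcripts stood at 620 to 975 RPM in Fnip2C/C WAT and at 2150 to 2971 in Fnip2T/T WAT. Small nuclear non-coding RNAs went the other way, with 347 to 1693 against 121 to 243 RPM, and 14 of the 21 tested were higher in Fnip2C/C. The endothelial markers also did not overlap, at 261 to 444 RPM in Fnip2C/C WAT and 491 to 832 in Fnip2T/T WAT, with 3 of the 4 lower in Fnip2C/C. Of the 6 macrophage markers, 3 were lower in Fnip2C/C, although their summed levels overlapped (274 to 718 and 337 to 587 RPM). In liver the sums of the small nuclear non-coding RNAs overlapped, at 201 to 306 RPM in Fnip2C/C and 114 to 272 in Fnip2T/T. By the limma threshold given below, 15.1% of all genes tested in WAT were higher in Fnip2C/C and 17.0% were lower. The hepatocyte list was low in both genotypes, at 6.46 to 27.1 and 32.5 to 55.2 RPM. The Fnip2C/C mouse 593 had 5599 RPM from the ovary list, against at most 81.2 in the other WAT libraries, and the Fnip2C/C mouse 638 had 2172 RPM from the brown or beige adipocyte list, against at most 903 elsewhere. These values move with genotype or with 1 library, and their part in the results on mitochondrial transcripts was not tested. Counts per gene do not show the edited base of Fnip2, and the genotype labels were therefore taken as given. In bulk tissue, fewer cells of a type and less RNA per cell cannot be told apart.

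The part of the reads on mitochondrial rows overlapped between all groups, but their makeup differed with tissue and, in WAT, with genotype. They held 14.8% ± 3.91 (SD, n = 4) of the listed reads in Fnip2C/C WAT, 16.2% ± 2.60 (SD, n = 5) in Fnip2T/T WAT, 13.2% ± 0.401 (SD, n = 5) in Fnip2C/C liver and 13.6% ± 1.27 (SD, n = 5) in Fnip2T/T liver. The mRNAs alone held 5.30%, 3.46%, 5.02% and 3.51% in the Fnip2C/C WAT libraries of mice 590, 593, 599 and 638. They held 9.82%, 7.57%, 7.92%, 8.26% and 14.1% in the Fnip2T/T WAT libraries of mice 607, 608, 609, 657 and 658, so that the genotypes did not overlap. In liver the mRNA share ran from 11.4% to 12.9% in Fnip2C/C and from 11.1% to 14.2% in Fnip2T/T. The rRNA share of WAT was 10.4% ± 3.93 (SD, n = 4) in Fnip2C/C and 6.63% ± 3.31 (SD, n = 5) in Fnip2T/T, with overlapping libraries (5.59% to 13.8% and 3.62% to 10.6%). The rRNA share of liver was far smaller, 0.983% ± 0.548 (SD, n = 5) in Fnip2C/C and 0.894% ± 0.218 (SD, n = 5) in Fnip2T/T. The tRNA rows were a trace everywhere, at 0.0242% to 0.0792% in Fnip2C/C WAT, 0.0109% to 0.0156% in Fnip2T/T WAT and at most 0.00997% in liver. These shares are descriptions and were not tested, and a share of 1 class falls when another rises. The libraries start on runs of A, so reads on rRNA and tRNA rows need not measure the levels of these RNAs.

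**Figure D1:**
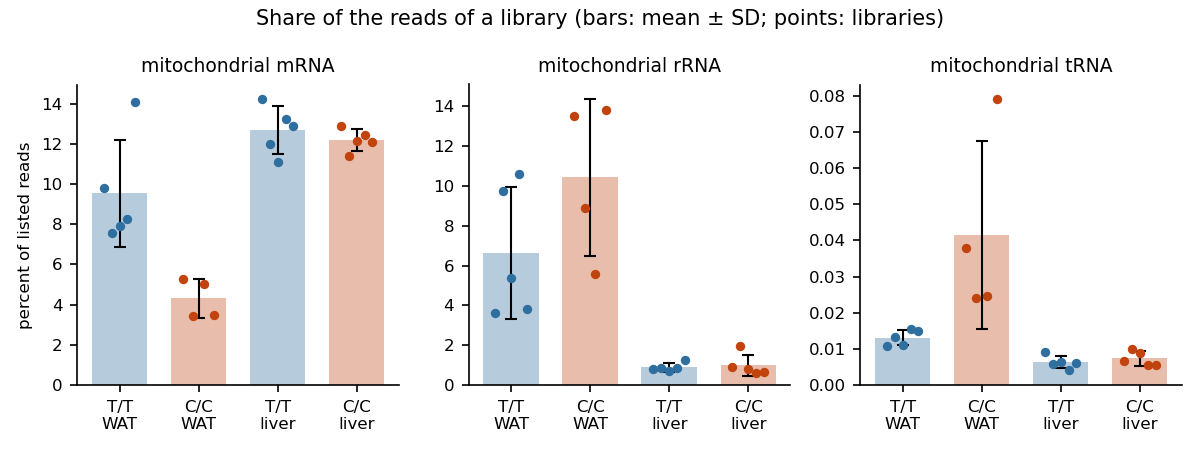
Percent of the listed reads of each library that fell on mitochondrial mRNAs, rRNAs and tRNAs, by tissue and Fnip2 genotype (bars are means ± SD, points are libraries, and each panel has its own axis from 0). The 4 Fnip2C/C WAT libraries lie at 3.46% to 5.30% for mRNAs, all under the 5 Fnip2T/T WAT libraries, while the liver groups overlap in every class.

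In WAT, 14 of the 24 mitochondrial genes tested (mean normalized count of at least 10) differed between the genotypes at a limma adjusted p under 0.05, against 32.1% of all genes tested. Of these, 10 were higher in Fnip2C/C (15.1% of all genes tested were) and 4 were lower (17.0% of all genes tested were). By class, 8 of 13 mRNAs, neither of the 2 rRNAs and 6 of 9 tRNAs passed. The libraries of the genotypes did not overlap for 13 of the 24, against 26.1% of all genes tested, and the exact two-sided permutation test over 126 groupings gave its smallest value, p = 0.00794, for 12 of the 14. The members therefore moved in both directions inside the same libraries, with log2 fold changes (Fnip2C/C minus Fnip2T/T) from -2.08 to 2.20 and a median of 0.73 beside 0.02 for all genes tested. Leaving out mice 593 and 638 together, which leaves 2 Fnip2C/C libraries and was chosen after seeing the data, kept 10 of the 14 and lost mt-Nd4, mt-Nd4l, mt-Nd6 and mt-Ti. Over all genes, 1901 of 12645 passed in that setting, against 4111 of 12798 with every mouse.

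The mRNAs that were lower in Fnip2C/C WAT were 3 of the most read ones. The gene mt-Cytb encodes cytochrome b, the only mitochondrially encoded subunit of complex III. Its normalized count was 15782, 6699, 12475 and 9560 in the Fnip2C/C libraries and 51621, 28241, 29023, 46867 and 91044 in the Fnip2T/T libraries, in the order of mice given above. Every Fnip2C/C library lay under every Fnip2T/T library, with a log2 fold change of -2.08 (SE 0.37, limma adjusted p = 0.00183). The gene mt-Nd4, a membrane subunit of complex I, stood at 119445, 48940, 124068 and 51122 in Fnip2C/C and at 233119, 186084, 214868, 179490 and 386899 in Fnip2T/T. Again the genotypes did not overlap, and the log2 fold change was -1.56 (SE 0.38, limma adjusted p = 0.00857). With mice 593 and 638 left out it was -0.92 (limma adjusted p = 0.0989), and those mice held the lowest values of the Fnip2C/C group. The gene mt-Atp6, a subunit of the proton channel of ATP synthase, stood at 6799, 2849, 5962 and 7756 in Fnip2C/C and at 13925, 10600, 9688, 14742 and 22458 in Fnip2T/T. Its libraries did not overlap either (log2 fold change -1.32, SE 0.33, limma adjusted p = 0.00949).

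The mRNAs that were higher in Fnip2C/C WAT had fewer reads, and all of them apart from mt-Nd6 lie in the run of genes from mt-Atp8 to mt-Nd4. The gene mt-Co3, a core subunit of cytochrome c oxidase (complex IV), stood at 2727, 2184, 3553 and 7965 in Fnip2C/C and at 952, 1152, 1117, 1208 and 1428 in Fnip2T/T. The log2 fold change was 1.63 (SE 0.31, limma adjusted p = 0.0027), the Fnip2C/C mouse 638 was highest and the genotypes did not overlap. They overlapped once the reads of its nuclear copy, described further on, were added. The gene mt-Atp8, the other mitochondrially encoded subunit of ATP synthase, stood at 121, 59.0, 93.2 and 224 in Fnip2C/C and at 28.7, 38.9, 23.4, 55.5 and 40.9 in Fnip2T/T (log2 fold change 1.60, SE 0.36, limma adjusted p = 0.00551). The lowest Fnip2C/C library lay just over the highest Fnip2T/T library. The gene mt-Nd3, a small subunit of complex I, stood at 827, 691, 1042 and 2022 in Fnip2C/C and at 342, 329, 412, 342 and 531 in Fnip2T/T, with no overlap (log2 fold change 1.44, SE 0.28, limma adjusted p = 0.00285). The gene mt-Nd4l, another subunit of complex I, stood at 99.97, 88.0, 112 and 146 in Fnip2C/C and at 60.7, 45.7, 50.2, 43.6 and 95.5 in Fnip2T/T. Here the Fnip2T/T mouse 658 lay above the lowest Fnip2C/C library, and the log2 fold change was 0.94 (SE 0.26, limma adjusted p = 0.0149). The gene mt-Nd6, the only mRNA encoded on the other strand, stood at 38.8, 38.4, 33.6 and 58.6 in Fnip2C/C and at 17.2, 16.5, 16.7, 16.9 and 28.0 in Fnip2T/T. It rested on 15 to 50 reads per library, did not overlap between the genotypes and had a log2 fold change of 1.11 (SE 0.28, limma adjusted p = 0.0104).

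**Figure D2:**
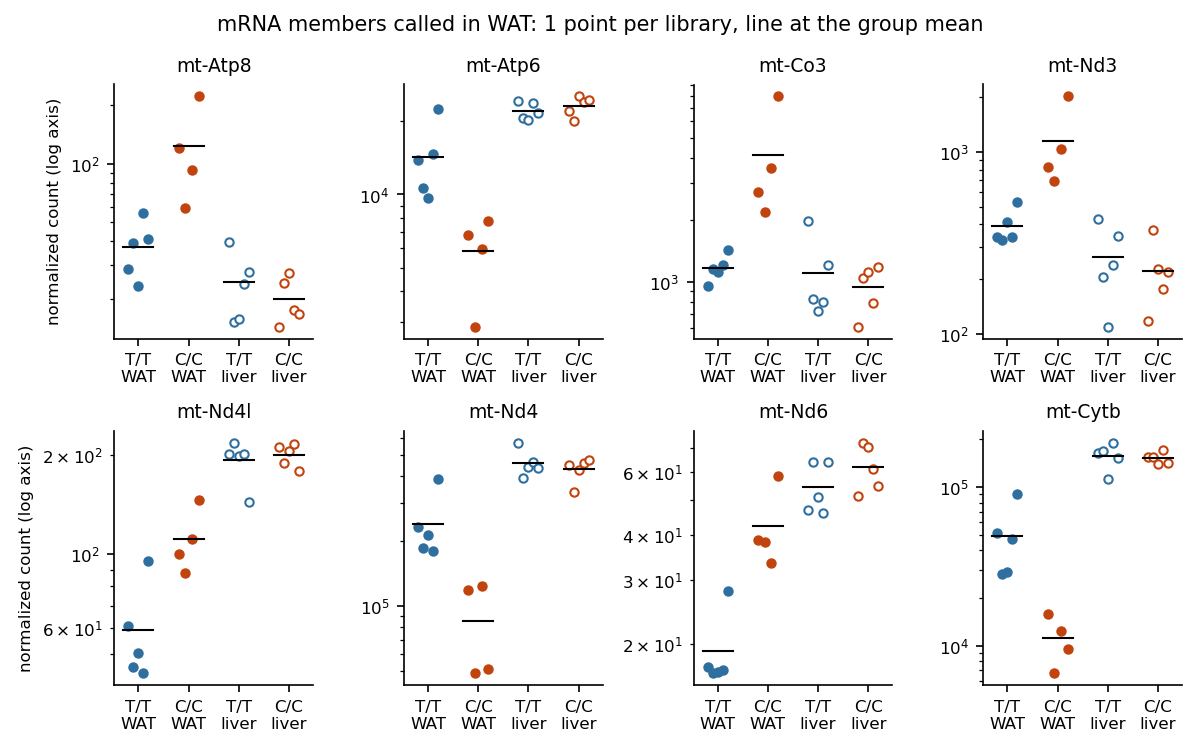
Normalized count on a log axis of the 8 mitochondrial mRNAs that passed the test in WAT, with 1 point per library (filled for WAT, open for liver) and a line at the group mean. In WAT, mt-Atp6, mt-Nd4 and mt-Cytb are lower in Fnip2C/C and the other 5 are higher, while the liver genotypes overlap for each gene.

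Reads counted on the genes that share an mRNA therefore differed in opposite directions in WAT. A 3′ library reads mainly the ends of transcripts. Reads on mt-Atp8 and mt-Nd4l, which lie first in their pairs, therefore need not measure the shared mRNA. Reads on mt-Atp6 for each read on mt-Atp8 numbered 56.1, 48.3, 64.0 and 34.7 in the Fnip2C/C libraries. They numbered 485, 272, 413, 265 and 549 in the Fnip2T/T libraries, so that even the highest Fnip2C/C ratio was far under the lowest Fnip2T/T ratio. In liver the same ratio ran from 820 to 1522 in Fnip2C/C and from 611 to 1347 in Fnip2T/T, overlapping and above all WAT libraries. For mt-Nd4 over mt-Nd4l, the ratio was 1195, 556, 1111 and 349 in Fnip2C/C WAT and 3839, 4070, 4277, 4114 and 4052 in Fnip2T/T WAT. The Fnip2T/T libraries lay close together here, and the Fnip2C/C libraries were lower and spread widely. In liver it ran from 1789 to 2658 in Fnip2C/C and from 1801 to 3040 in Fnip2T/T. The denominators were small, with 21 to 191 reads of mt-Atp8 and 44 to 126 reads of mt-Nd4l per WAT library. The ratios restate the members' values and carry no test. A scaling of the library cannot alter them, since both genes of a ratio come from the same library.

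**Figure D3:**
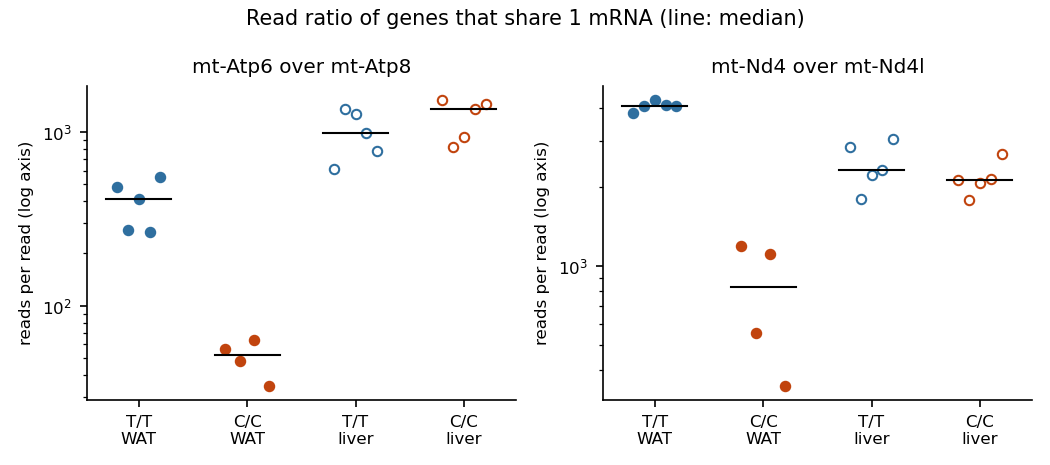
Reads of mt-Atp6 per read of mt-Atp8 (left) and of mt-Nd4 per read of mt-Nd4l (right) on log axes, with 1 point per library (filled for WAT, open for liver) and a line at the group median. The Fnip2C/C WAT libraries lie at 34.7 to 64.0 and at 349 to 1195, under the Fnip2T/T WAT libraries and both liver groups.

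The other 5 mRNAs did not pass the test in WAT. The complex IV subunits mt-Co1 and mt-Co2 had log2 fold changes of 0.17 (SE 0.23) and -0.38 (SE 0.27). The complex I subunits mt-Nd1, mt-Nd2 and mt-Nd5 had log2 fold changes of -0.35 (SE 0.26), -0.50 (SE 0.27) and 0.15 (SE 0.21). Their limma adjusted p lay between 0.164 (mt-Nd2) and 0.611 (mt-Nd5). The normalized count of mt-Nd1 was 54768 ± 7662 (SD, n = 4) in Fnip2C/C and 70322 ± 15135 (SD, n = 5) in Fnip2T/T, and that of mt-Nd5 was 5712 ± 985 (SD, n = 4) and 5144 ± 899 (SD, n = 5). Both rRNAs varied widely among libraries of 1 genotype. The large rRNA, mt-Rnr2, stood at 520399, 298101, 215140 and 571668 in Fnip2C/C and at 118921, 335221, 199773, 366995 and 138641 in Fnip2T/T. The small rRNA, mt-Rnr1, ran from 53151 to 163041 in Fnip2C/C and from 30069 to 112300 in Fnip2T/T. Neither separated the genotypes, with log2 fold changes of 0.83 (SE 0.43, limma adjusted p = 0.161) and 0.64 (SE 0.42, limma adjusted p = 0.262). Reads of mt-Rnr2 per read of mt-Rnr1 were steadier, at 3.19 to 5.53 and 2.99 to 4.18 in the WAT groups and at 1.78 to 2.15 and 1.67 to 2.49 in the liver groups.

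The tRNAs, which carry amino acids to the mitochondrial ribosome, were rarely read, and 9 of the 18 listed in WAT reached the minimum. Of these, 5 were higher in Fnip2C/C (15.1% of all genes tested were), mt-Ti was lower (17.0% of all genes tested were) and 3 did not pass. Because the libraries start on runs of A, reads on tRNA rows need not measure the levels of the tRNAs. The methionine tRNA, mt-Tm, had the most reads, with normalized counts of 975, 508, 547 and 1465 in Fnip2C/C and 194, 259, 251, 324 and 272 in Fnip2T/T. The genotypes did not overlap, and the log2 fold change was 1.63 (SE 0.29, limma adjusted p = 0.00182). The proline tRNA, mt-Tp, stood at 254, 128, 218 and 918 against 42.7, 60.3, 51.4, 75.4 and 84.9, and had the largest log2 fold change of the members tested (2.20, SE 0.45, limma adjusted p = 0.00382). The glutamine tRNA, mt-Tq, stood at 243, 165, 151 and 570 against 31.2, 88.5, 71.4, 47.6 and 95.5 (log2 fold change 1.95, SE 0.41, limma adjusted p = 0.00438). The valine tRNA, mt-Tv, which lies between the rRNAs, stood at 153, 106, 111 and 463 against 41.9, 55.5, 39.1, 43.6 and 45.5 (log2 fold change 1.90, SE 0.36, limma adjusted p = 0.00272). In each of these the Fnip2C/C libraries lay above all Fnip2T/T libraries, with mouse 638 highest. The alanine tRNA, mt-Ta, was higher by 2.14 (SE 0.56, limma adjusted p = 0.0118) on the log2 scale, on as few as 5 reads in a library, and by 1.497 with a pseudocount of 10.

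In the opposite direction, the isoleucine tRNA mt-Ti stood at 22.3, 11.2, 18.4 and 12.9 in Fnip2C/C and at 25.4, 32.1, 30.1, 30.7 and 44.7 in Fnip2T/T. The genotypes did not overlap (log2 fold change -0.99, SE 0.30, limma adjusted p = 0.0235), although the call was lost without mouse 593, 638 or 658 and under quantile normalization. Its neighbour on the other strand, mt-Tq, differed the other way. The tRNAs mt-Td (aspartate), mt-Tl1 and mt-Tl2 (both leucine) had log2 fold changes of -0.90 (SE 0.40), 1.04 (SE 0.40) and -0.23 (SE 0.42), with limma adjusted p of 0.103, 0.0627 and 0.695. Of these, mt-Tl1 passed with DESeq2, under quantile normalization, with a term for mouse number and without mouse 599 or 658. That term split the mice into lower and higher numbers. Without mouse 599, mt-Td passed as well. Whether the counting used strand is not given in the sources used here, so reads of mt-Nd6 or of tRNAs on the other strand cannot be told apart from antisense reads of the genes they face.

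**Figure D4:**
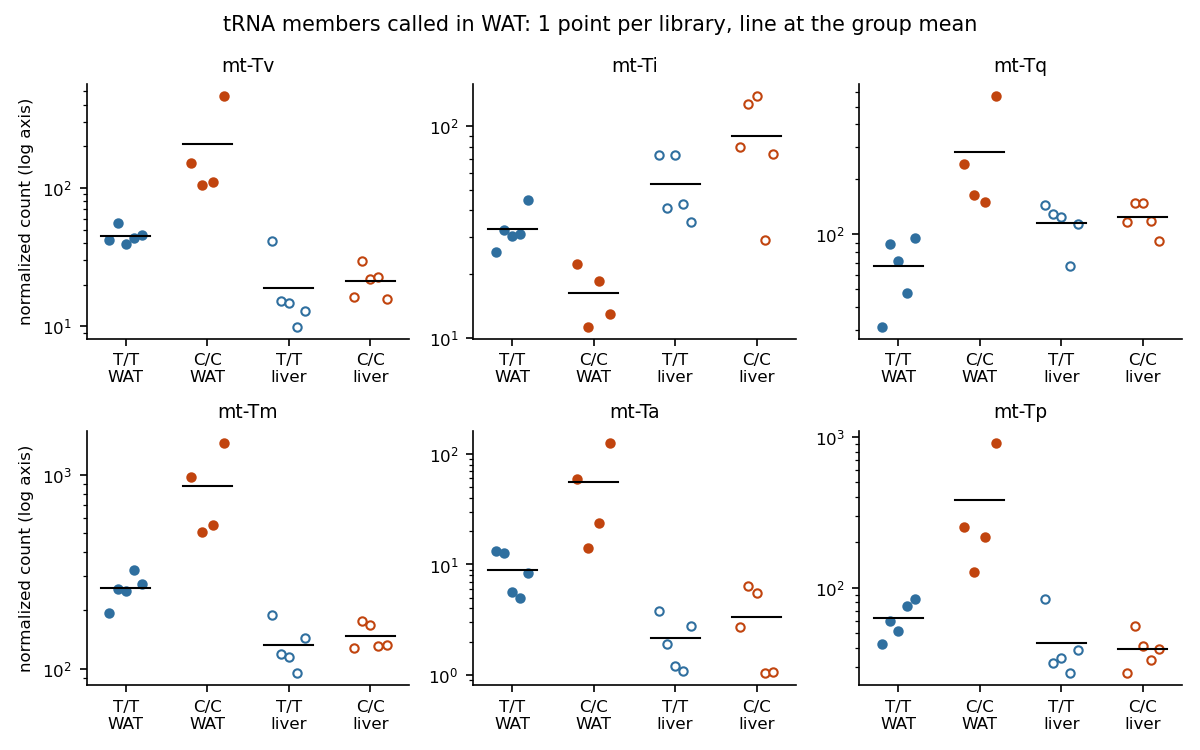
Normalized count on a log axis of the 6 mitochondrial tRNAs that passed the test in WAT, with 1 point per library (filled for WAT, open for liver) and a line at the group mean. The Fnip2C/C WAT libraries lie above the Fnip2T/T ones in each panel apart from mt-Ti, where they lie below.

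Along the genome, the WAT differences had both signs, and no test of their order was made. From mt-Atp8 to mt-Nd4 the sequence of signs was up, down, up, up, up and down over 6 neighbouring mRNAs. All of them passed (32.1% of all genes tested did), and mt-Co3, mt-Nd3 and mt-Nd4l formed a run with 1 sign. All 4 tested genes of the other strand (mt-Tq, mt-Ta, mt-Nd6 and mt-Tp) were higher in Fnip2C/C WAT, with log2 fold changes from 1.11 to 2.20. Of the 20 tested genes of the main strand, 6 were higher, 4 were lower and 10 did not pass, with a median log2 fold change of 0.16. The tRNAs mt-Tv and mt-Tm were among those 6. For comparison, 15.1% of all genes tested were higher and 17.0% lower. At the far end, mt-Cytb and mt-Tp lie close together on opposite strands and held the lowest and the highest value.

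**Figure D5:**
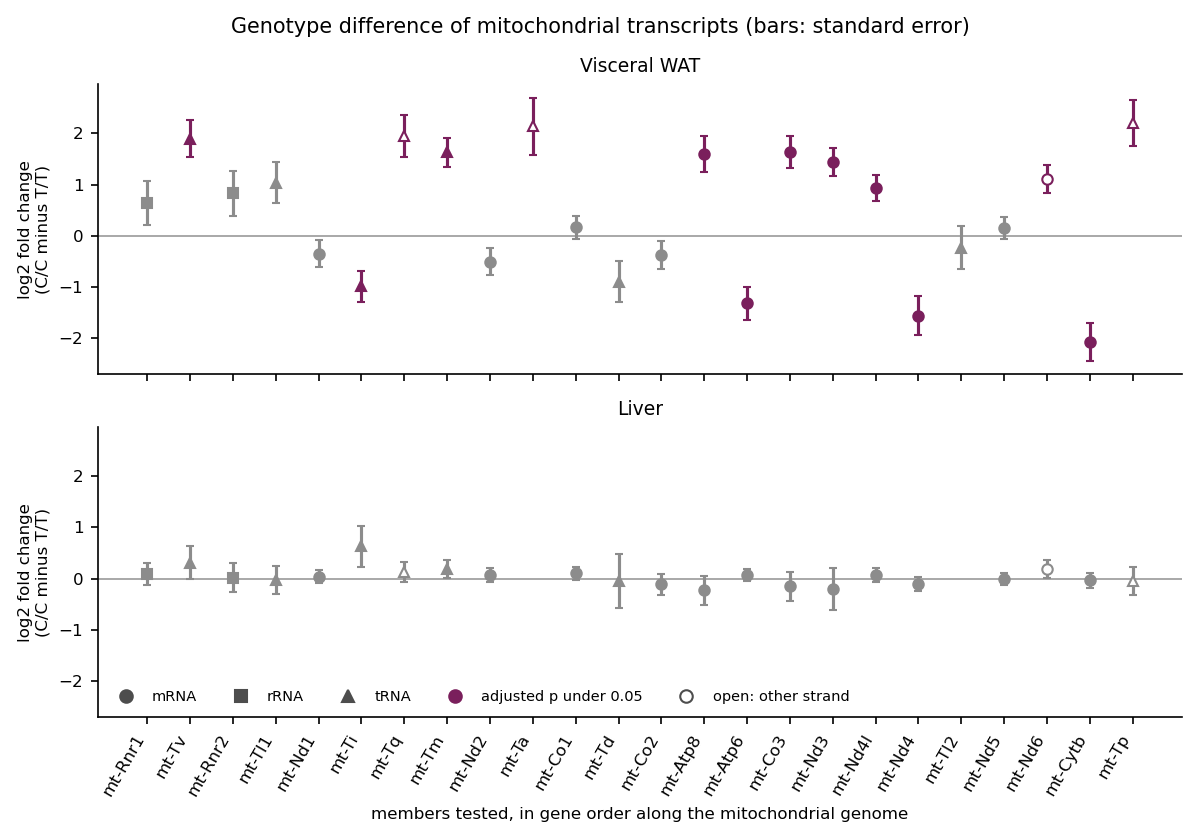
Log2 fold change (Fnip2C/C minus Fnip2T/T) with its standard error for each mitochondrial gene tested, in the order of the genes along the circle, in WAT (top) and liver (bottom). Purple marks genes past the limma threshold (14 in WAT, 0 in liver), the shape gives the class and open symbols lie on the other strand.

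In liver the members did not separate the genotypes. None of the 22 tested passed by limma, edgeR or DESeq2, none had an unadjusted limma p under 0.05 (1.97% of all genes tested did), and none had libraries that did not overlap (0.248% of all genes tested did). No gene of the liver table passed at all (0% of 11710). The log2 fold changes ran from -0.23 (mt-Atp8, SE 0.28) to 0.63 (mt-Ti, SE 0.40), with a median of 0.03 beside 0.01 for all genes. For the genes with large differences in WAT, the liver libraries of the genotypes overlapped. The normalized count of mt-Cytb was 152488 ± 12455 (SD, n = 5) in Fnip2C/C and 158135 ± 28600 (SD, n = 5) in Fnip2T/T, and that of mt-Nd4 was 430067 ± 54401 (SD, n = 5) and 461872 ± 67165 (SD, n = 5). For mt-Co3 it was 947.98 ± 243 (SD, n = 5) and 1104 ± 519 (SD, n = 5), where the Fnip2T/T mouse 607 held 1969 and the other 4 livers of its group 719 to 1210. The tRNA mt-Tm stood at 147 ± 23.6 (SD, n = 5) and 132 ± 36.2 (SD, n = 5). The exact two-sided permutation test over 252 groupings gave no member a p under 0.198.

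The genotype effect in WAT was also compared directly with that in liver. For 13 of the 22 members tested in both tissues the effects differed at a limma adjusted p under 0.05, against 29.2% of all genes tested. Of these, 9 were more positive in WAT (11.5% of all genes tested were) and 4 more negative (17.7% of all genes tested were). The largest differences on the log2 scale were 2.26 (SE 0.57, limma adjusted p = 0.0062) for mt-Tp and -2.04 (SE 0.41, limma adjusted p = 0.0011) for mt-Cytb. They comprised the 8 mRNAs called in WAT and the tRNAs mt-Ti, mt-Tm, mt-Tp, mt-Tq and mt-Tv, whereas mt-Ta was under the minimum in liver. Without mouse 638 the count was 9, of which 5 were more positive in WAT, and the value of mt-Tp was 1.645. With mice 593 and 638 left out of WAT the count was 7, and the value of mt-Nd4 went from -1.46 to -0.82. Calls over all genes fell too, from 3033 of 10404 to 2165 of 10445 and 1839 of 10412 in these settings. The difference for mt-Co3 (1.79) was lost when the reads of its nuclear copy were added (0.20, limma adjusted p = 0.877).

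The levels of the mRNAs spanned several orders of magnitude, and their order was read only where 2 scales gave it alike. A 3′ library reads mainly the ends of transcripts, so that reads need not grow with the length of a gene, and each level is therefore given in RPM and in RPM per kb. In Fnip2T/T WAT, mt-Nd4 was the highest mRNA on both scales, at 52848 ± 17155 RPM (SD, n = 5) and 38351 ± 12449 RPM per kb (SD, n = 5). It was followed by mt-Nd1, at 15445 ± 2550 RPM (SD, n = 5) and 16139 ± 2664 RPM per kb (SD, n = 5). Next were mt-Cytb at 10933 ± 5420 RPM (SD, n = 5) and mt-Nd2 at 10071 ± 1743 RPM (SD, n = 5), which changed places per kb and differed by less than their spread. In Fnip2T/T liver, mt-Nd4 (68460 ± 7537 RPM and 49680 ± 5469 RPM per kb, SD, n = 5) was again the highest on both scales. It was followed by mt-Cytb (23528 ± 4286 RPM and 20567 ± 3747 RPM per kb, SD, n = 5) and mt-Nd1 (16328 ± 2192 RPM and 17062 ± 2290 RPM per kb, SD, n = 5). In Fnip2T/T mice the lowest mRNAs of both tissues were mt-Nd6 and mt-Atp8, at 4.21 and 8.35 RPM in WAT and at 8.15 and 3.63 RPM in liver. In Fnip2T/T liver their order turned with the scale, since mt-Atp8 is the shorter gene. In Fnip2C/C WAT, mt-Nd4 stood at 17782 ± 8044 RPM (SD, n = 4) and mt-Nd1 at 11485 ± 1521 RPM (SD, n = 4), with overlapping ranges of mean ± SD on both scales. The tables were normalized separately, so values are set side by side across tissues without a test. For mt-Rnr2 they were 52624 ± 20603 (SD, n = 4) and 32527 ± 16504 (SD, n = 5) RPM per kb in WAT and 4110 ± 2430 (SD, n = 5) and 3790 ± 1139 (SD, n = 5) RPM per kb in liver, for Fnip2C/C and Fnip2T/T.

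Reads of some members can be shared with copies of mitochondrial DNA in the nuclear genome. Among the other GENCODE transcripts, 11 matched a member over at least 60 bases at 95% identity or more, and they covered 9 of the 13 mRNAs and no rRNA or tRNA. The longest stretch lay on chromosome 1 (chr1:24611535-24616197, GRCm38, - strand), where 7 annotated pseudogenes followed the order of the mitochondrial genes from mt-Co1 to mt-Nd4 with a spacing equal to within 1 base. They were 99.7% to 100% identical to the members. Of the 24 members tested in WAT, 7 lie wholly inside that stretch (mt-Td, mt-Co2, mt-Atp8, mt-Atp6, mt-Co3, mt-Nd3 and mt-Nd4l), and 5 of them passed, 4 higher (15.1% of all genes tested were) and 1 lower (17.0% of all genes tested were). Of the 15 members wholly outside it, 8 passed, 6 higher and 2 lower, against 32.1% of all genes tested. The remaining members, mt-Co1 and mt-Nd4, overlap its ends. How reads that match more than 1 place were counted is not given in the sources used here. The levels of the 7 genes, and those of mt-Co1 and mt-Nd4, are therefore uncertain. Set against all mitochondrial reads, each of these nuclear transcripts was at most 0.0637% in WAT and 0.168% in liver. In WAT, 10 of them were tested and 5 passed, 4 lower and 1 higher, against the 32.1% of all genes tested. The lower ones were Gm28661 (log2 fold change -2.61, limma adjusted p = 0.00085), Gm13340 (-1.76, limma adjusted p = 0.0047), Gm29216 (-1.73, limma adjusted p = 0.00155) and Gm10925 (-0.77, limma adjusted p = 0.0438). The copy of part of mt-Nd5, Gm4076, was higher (log2 fold change 1.21, limma adjusted p = 0.0418).

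Set against the member they resemble, the copies of mt-Co3 and mt-Co2 were not small in every library. The copy of mt-Co3, Gm28437, held 134, 128, 152 and 191 normalized counts in the Fnip2C/C WAT libraries and 629, 2499, 77.0, 83.3 and 122 in the Fnip2T/T WAT libraries. In mouse 608 it was thus 217% of mt-Co3. In liver it held 85.7, 4502, 5374, 2415 and 68.6 in the Fnip2C/C libraries of mice 590, 591, 592, 638 and 639, and 126, 88.9, 69.5, 72.5 and 1613 in the Fnip2T/T libraries of mice 607, 608, 657, 658 and 659. It exceeded mt-Co3 in 4 of the liver libraries. The copies of mt-Co2 reached 72.7% of mt-Co2 in the liver of mouse 591 and 11.5% in WAT. Those of the other members with copies reached at most 29.4% (mt-Nd3) in WAT and 14.4% (mt-Nd3) in liver.

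The copies were therefore also added to their members, an alternative chosen after seeing the data. In WAT the 14 calls were all kept, but the summed values of mt-Co3 then overlapped between the genotypes, at 2861, 2313, 3705 and 8156 in Fnip2C/C and at 1581, 3651, 1194, 1291 and 1550 in Fnip2T/T. The log2 fold change of this sum was 1.15 (SE 0.39, limma adjusted p = 0.0381). In liver no member passed with the copies added, and the sum for mt-Co3 had a log2 fold change of 0.95 (SE 0.71). Of the 13 differences between the tissues, 12 were kept and that of mt-Co3 was lost. The differences of mt-Atp6, mt-Nd3, mt-Nd4 and mt-Nd4l between the genotypes in WAT were -1.31, 1.49, -1.56 and 0.95 with the copies added.

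The nuclear genes that transcribe, cut, tail and stabilise mitochondrial RNA were followed as a list of 53, of which 47 were tested in WAT. Of these, 10 passed (21.3%, under the 32.1% of all genes tested), 2 higher and 8 lower in Fnip2C/C. Among all genes tested, 15.1% were higher and 17.0% lower. The median log2 fold change of the list was -0.18 beside 0.02 for all genes. The lowest p was that of Fastk, a mitochondrial RNA-binding protein needed for the mRNA of mt-Nd6. Its normalized count was 35.4 ± 21.1 (SD, n = 4) in Fnip2C/C and 143 ± 32.3 (SD, n = 5) in Fnip2T/T, with no overlap between libraries (log2 fold change -2.16, SE 0.36, limma adjusted p = 0.00141). Ptcd2, which takes part in processing the mRNA of mt-Cytb, was lower by a log2 fold change of -1.10 (SE 0.24, limma adjusted p = 0.00533). Ptcd1, which binds leucine tRNAs and their precursors, and Tbrg4, a relative of Fastk that stabilises a set of mitochondrial mRNAs, were higher (log2 fold changes 1.10 and 0.83, limma adjusted p = 0.00739 and 0.00639). Also lower were Mterf2 of the family of transcription termination factors (-1.70), the tRNA-modifying enzyme Trit1 (-1.01), the tail-removing phosphodiesterase Pde12 (-1.14) and Polg, the catalytic subunit of the mitochondrial DNA polymerase (-0.60), with limma adjusted p between 0.00834 and 0.0162. In liver none of 49 passed, and the lowest unadjusted limma p was 0.0469 (Pde12, log2 fold change -0.39, SE 0.18), followed by Trmu (-0.43, SE 0.21) and Fastkd2 (-0.34, SE 0.18).

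Of the nuclear genes for partner subunits of the same complexes that passed in WAT, most were lower in Fnip2C/C. For complex I, 27 of 39 tested passed (69.2%), 7 higher and 20 lower, with a median log2 fold change of -0.51. For complex III, 3 of 9 passed (33.3%), 1 higher and 2 lower, with a median of 0.01. For complex IV, 6 of 13 passed (46.2%), 1 higher and 5 lower, with a median of -0.49. For ATP synthase, 10 of 16 passed (62.5%), 2 higher and 8 lower, with a median of -0.77. The share called in all genes tested was 32.1% (15.1% higher and 17.0% lower), and their median was 0.02. The adipocyte and haemoglobin values given above moved with genotype in the same libraries, and their part in these counts was not tested. In liver none of the 39, 9, 12 and 16 subunits tested passed.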

How the data were processed

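The authors deposited 1 table of normalized counts (signal) per tissue, in which gene read counts were divided by 1 size factor per library. The submitters' processing notes name FastQC 0.11.9, HISAT2, SAMtools 1.12, HTSeq, DESeq2 and GRCm39, and the annotation release, strand setting and handling of multiply mapped reads are not given in the sources used here. Samples were grouped by the genotype and mouse number of their labels. The labels list 76 run samples, 4 per mouse, combined by the authors into 19 columns, and 1 WAT column without a label was left out. Whole reads were recovered for 100% of the values (within 1e-06). These are reads and not molecules, covering genes in the tables.

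A pseudocount of 1 was added, log2 was taken, rows with a mean of at least 10 in a tissue were kept, and limma 3.58.1 (R 4.3.3, trend and robust options) was fitted per tissue with genotype as its only term, with Benjamini-Hochberg adjustment over all rows (12798 in WAT, 11710 in liver) and a threshold of 0.05. The difference between tissues was an interaction contrast over the 10404 rows kept in both. Fold changes are on the log2(value + 1) scale and understate changes of low genes. Single genes were also compared by an exact two-sided permutation test. The fits were tested on simulated data. Alternatives included edgeR 4.0.16 and DESeq2 1.42.0 on the recovered reads. Nuclear copies were sought with blastn 2.17.0 among GENCODE vM21 transcripts, whose build (GRCm38) differs from that of the authors, so that coordinates are those of the annotation.

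The text names every mRNA and rRNA, tRNAs with a mean of at least 10 in either tissue and up to 8 called genes of the RNA-processing list (the 3 with the lowest p in liver). The members and lists were chosen with earlier results of these data known. The 6 mice with both tissues were checked for paired deviations between tissues, with correlations (across genes) of -0.203 to 0.156. Each library is a separate mouse.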

Additional observations from a re-analysis of the deposited data

Results flagged for a closer look

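For 13 members the genotype effect in WAT differed from that in liver by a test of the difference itself (limma interaction contrast, adjusted p between 0.0011 and 0.0256). On the log2 scale, the WAT effect minus the liver effect was 2.26 for mt-Tp, 1.82 for mt-Tq, 1.82 for mt-Atp8, 1.79 for mt-Co3, 1.65 for mt-Nd3, 1.59 for mt-Tv, 1.45 for mt-Tm, 0.92 for mt-Nd6 and 0.87 for mt-Nd4l. It was -2.04 for mt-Cytb, -1.62 for mt-Ti, -1.46 for mt-Nd4 and -1.39 for mt-Atp6. The liver values of these genes overlapped between the genotypes. The difference for mt-Co3 was 0.20 (limma adjusted p = 0.877) when the values of its nuclear copy were added.

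A library far from the rest of its group was found in 12 of 108 groups of 4 or 5 libraries tested. The cut-off flags about 1 group in 20 for independent, normally distributed values. These groups share the same libraries and hold counts or shares without a log, so the number of flags cannot be set against that rate. In Fnip2C/C WAT, mouse 638 held 918 normalized counts of mt-Tp, with the next library at 254, and 463 of mt-Tv, with the next at 153. In Fnip2T/T WAT, mouse 658 held 386899 of mt-Nd4 (next 233119), 5740 of mt-Co1 (next 4596) and 28.0 of mt-Nd6 (next 17.2). In Fnip2C/C liver, mouse 591 held 86676 of mt-Rnr2 (next 38021), 40364 of mt-Rnr1 (next 21340), 54.3 of mt-Tl1 (next 31.6) and 1.94% of its listed reads on rRNA (next 0.908%). In Fnip2T/T liver, mouse 607 held 84.9 of mt-Tp (next 39.0) and 41.5 of mt-Tv (next 15.3), and mouse 659 held 144 of mt-Nd4l, with the nearest library at 199.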

How the results depend on the processing

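The directions of the 14 WAT calls held under every scaling, filter, pseudocount, tool and left-out mouse tried, wherever the gene was still tested. Without each mouse in turn, 13 to 16 members passed in WAT (10 to 11 higher, 3 to 5 lower), none in liver, and 9 to 14 in the difference between tissues (5 to 10 more positive in WAT, the lowest without mouse 638, and 4 more negative). In these fits, 3010 to 4273 of all genes passed in WAT and 2165 to 3352 in the difference between tissues. With a minimum mean of 50, the tissues differed for 8 members, 5 of them more positive, as 5 of the 13 were no longer tested or called. At that minimum they differed for 2189 of 6064 genes in all. With mice 593 and 638 left out of WAT, a setting chosen after seeing the data, 2 members were lower and 8 higher in Fnip2C/C WAT. The tissues differed for 7 members in that setting, of which 5 were more positive and 2 more negative, and for 1839 of 10412 genes in all. With the nuclear copies added to their member, also chosen after seeing the data, all 14 WAT calls held, no liver member passed, the difference between tissues was called for 12 members and no longer for mt-Co3 (0.20), and the liver values of mt-Co2 and mt-Co3 turned to 0.010 and 0.95. With mouse as a replicate block, the difference between tissues was called for 13 members, as without it, and the block changed the call of no member. Over all genes, 2753 were called with the block and 3033 without it. The paired deviations correlated at -0.203 to 0.156 over the 6 mice, and the consensus correlation was -0.115. No paired analysis was possible within a tissue because each mouse has 1 genotype.

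Dividing by listed reads without the 10 most-read other rows moved the liver shares to 16.5% (Fnip2C/C) and 17.0% (Fnip2T/T) for all members, to 15.2% and 15.9% for mRNAs and to 1.118% for rRNAs in Fnip2T/T. Signs changed only for members that passed in no setting of that tissue. Without 1 mouse, the WAT values ran from -0.0004 to 0.29 for mt-Co1 and from -0.58 to 0.0041 for mt-Tl2. In liver, those ranges were -0.26 to 0.061 (mt-Co2), -0.28 to 0.081 (mt-Co3), -0.15 to 0.038 (mt-Cytb), -0.029 to 0.12 (mt-Nd1), -0.017 to 0.15 (mt-Nd2), -0.49 to 0.0026 (mt-Nd3), -0.035 to 0.11 (mt-Nd4l), -0.083 to 0.062 (mt-Nd5), -0.16 to 0.20 (mt-Rnr1), -0.26 to 0.16 (mt-Rnr2), -0.25 to 0.51 (mt-Td), -0.20 to 0.19 (mt-Tl1), -0.19 to 0.21 (mt-Tp) and -0.053 to 0.24 (mt-Tq). Also in liver, library weights gave -0.024 for mt-Rnr1 and -0.14 for mt-Rnr2, a term for mouse number gave -0.042 for mt-Rnr2, quantile normalization gave 0.035 for mt-Cytb, and mt-Td stood at 0.080 with a pseudocount of 10, 0.33 with edgeR and 0.33 with DESeq2. Depth limits the tRNAs, mt-Nd6, mt-Nd4l and mt-Atp8, which rest on few reads per library. The causes of these shifts were not tested.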

Other observations

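Among the tRNAs under the minimum mean of 10, 9 were listed in WAT and 8 in liver, with mean normalized counts of 1.51 to 9.13 (WAT) and 0.93 to 5.11 (liver). With no filter on low values, mt-Tc and mt-Ts2 also passed in WAT, both higher in Fnip2C/C. The cysteine tRNA mt-Tc stood at 10.6, 7.5, 3.3 and 11.7 in the Fnip2C/C libraries of mice 590, 593, 599 and 638 and at 0, 3.9, 0, 3.0 and 2.3 in the Fnip2T/T libraries of mice 607, 608, 609, 657 and 658. These genes rest on at most 32 reads in a library.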
